A study of Homo sapiens with 6 samples.

Results

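Glycolysis splits glucose into pyruvate in the cytosol, and the citrate cycle oxidises the acetyl groups made from pyruvate in the mitochondrion. Proliferating blood cells and leukaemia cells are known for a high glycolytic rate with lactate release, and many of these genes are targets of the hypoxia factor HIF-1 and of MYC. FOXO3, a forkhead transcription factor held back by PI3K and AKT signalling, has been linked to mitochondrial and glucose metabolism in other cells. The 42 genes described here encode glucose transporters, the enzymes of glycolysis, its main regulators, the steps that admit pyruvate to the mitochondrion, the citrate cycle and its exits toward phosphoenolpyruvate and cytosolic acetyl-CoA. They were chosen by name from 47102 names in the deposited gene table, and all 42 had exactly 1 row there. The choice used no rule on their values, but earlier results of these data were known.

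RNA sequencing covered 6 libraries from the cell line labelled U-937, described by the labels as an acute myeloid leukemia line and commonly taken as a monocyte model. The 3 control libraries carry the genotype label WT, and the 3 others are labelled as FOXO3A knock-out cells made with small guide RNAs. No drug treatment or time course is recorded, and the sources used here do not give whether the knockout cells were 1 clone or a pool. The labels do not say whether each library was grown as its own culture. P-values therefore cover only library-to-library spread, and that spread may be technical.

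Expression is given as FPKM, which divides fragments by library size and by transcript length, so levels of different genes can be set side by side. The depth read from the steps of low values was such that a transcript of 2 kb at 1 FPKM stood for 30.2 to 40.5 read pairs per library. FOXO3 itself was at 4.22, 3.63 and 4.27 FPKM in control and at 3.93, 4.13 and 3.45 FPKM in knockout libraries (log2 fold change −0.06, 95% interval −0.29 to 0.17, limma adjusted p = 0.732; exact two-sided permutation p = 0.5, where 0.1 is the smallest possible). Small insertions or deletions can remove a protein without lowering its mRNA, so this level does not check the knockout label, and directions are those of the libraries labelled knockout. The cell type label was not borne out by its markers. All 15 T lineage markers had a mean of at least 1 FPKM, against 3 of 18 monocyte and macrophage markers, of which CD68 stood in a row shared with EIF4A1, and FCGR1A, CYBB and S100A8 were at the floor of the table in every library. The T lineage markers summed to between 701 and 780 FPKM per control library and between 751 and 808 FPKM per knockout library, with 3 of the 15 past the threshold (CD2 and BCL11B higher, CD1E lower). The granule markers, nearly all of it CTSG, summed to between 57.7 and 76.3 FPKM and between 37.6 and 39.3 FPKM, and the part of such shifts in the values below was not tested. In bulk RNA, fewer cells of a type and less RNA per cell cannot be told apart.

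None of the 42 members passed the test between knockout and control libraries (limma on log2(FPKM + 1), Benjamini-Hochberg adjusted p below 0.05 over 11162 names). Over all names tested 2.68% passed it, 1.38% as higher and 1.30% as lower. The smallest adjusted p among the members was 0.0538, and 6 members lay below 0.1, of which SLC2A3, PDK1 and SUCLA2 were higher and PFKL, PCK2 and SUCLG2 lower. How many of all names lay below 0.1 was not counted, so these 6 do not set the members apart. At an unadjusted p below 0.05 there were 5 higher and 9 lower members, where 14.9% and 10.7% of all names were higher and lower by that rule. No member differed 2-fold between the group means of FPKM, and 4 differed at least 1.5-fold. The 95% interval of the log2 fold change lay within 0.5 of 0 for 32 of the 42.

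The members lay mostly on the lower side. In the knockout libraries 33 of 42 (78.6%) had a lower mean on the log2(FPKM + 1) scale, against 46.6% of all names tested, and their median log2 fold change was −0.11, against 0.02 over all names. All 3 knockout values were below all 3 control values in 14 members (33.3%), where 14.7% of all names did this, and above them in 5 (11.9%), where 17.7% did. Genes of one pathway can vary together across 6 libraries, so these counts describe the members and are no test. Transcript GC content moved with the differences: across 11021 names, taken as a description since genes vary together, the log2 fold change had a Spearman rho of −0.40 with GC content, and the members had a median GC content of 52.4% against 49.2% over all names. The difference of the second control library from the other controls also went with GC content, at a rho of 0.36 over all names. After the dependence on GC content and transcript length was regressed out, 32 of 42 members were lower, with a median of −0.08, and 27 of 42, with a median of −0.06, when the second control library was left out as well.

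**Figure D1:**
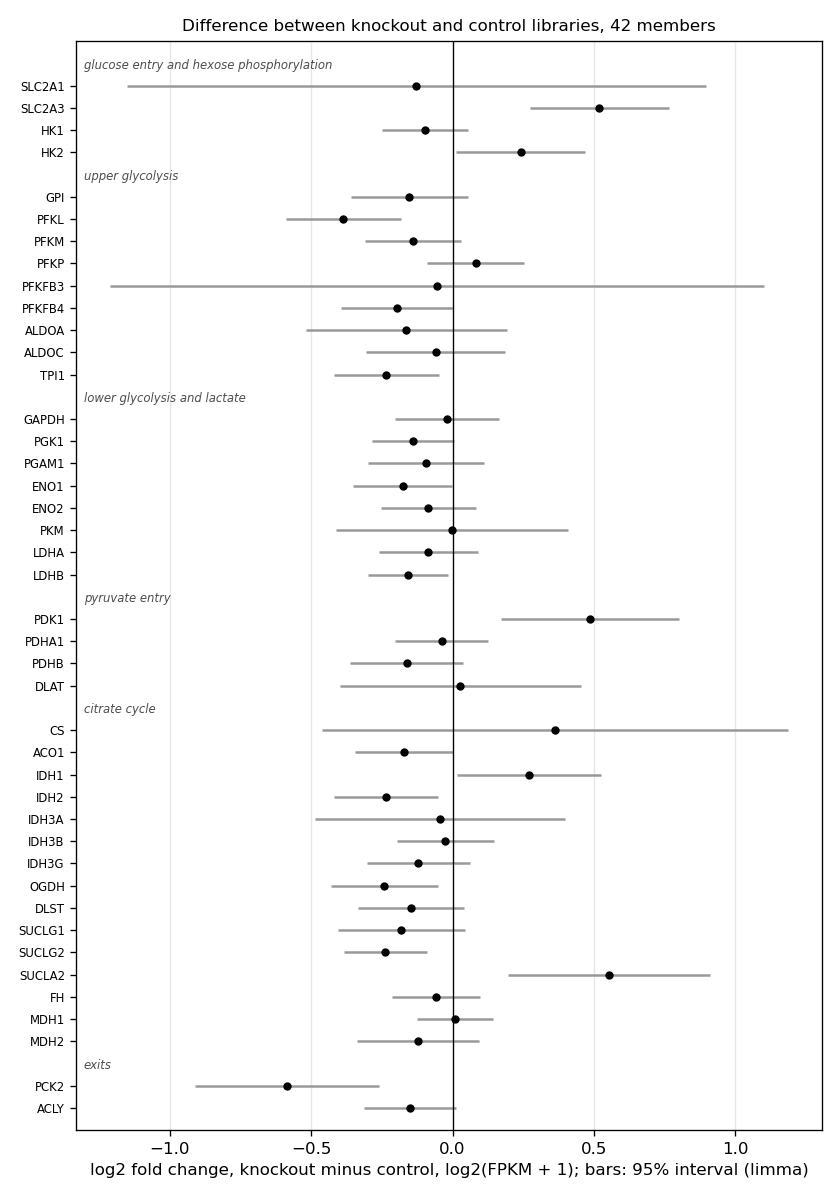
Log2 fold change of each of the 42 members (x axis, knockout minus control on the log2(FPKM + 1) scale) with its 95% interval from limma, grouped by role. Most points lie left of 0, and the widest intervals belong to SLC2A1, PFKFB3 and CS.

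Mean levels in the control libraries ranged from 1.60 FPKM (PDK1) to 1391 FPKM (GAPDH). The members' median over all libraries was 17.9 FPKM, against 5.82 over all names tested, and their sum made up 1.40% to 1.51% of all FPKM of a library. GAPDH, which oxidises glyceraldehyde 3-phosphate, alone gave 40.0% to 43.0% of that sum. The 7 members with a mean over 100 FPKM were GAPDH, ENO1, PGAM1, LDHB, TPI1, LDHA and ALDOA, all enzymes of glycolysis or lactate exchange. The 6 under 5 FPKM were SLC2A3, PFKM, PFKFB3, PFKFB4, PDK1 and PCK2, most of them transporters, regulators or minor isozymes. The highest citrate cycle member was IDH2, at 106 ± 7.32 FPKM in control libraries (SD, n = 3), and the highest of the pyruvate entry group was PDHA1, at 26.7 ± 1.16 FPKM.

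**Figure D2:**
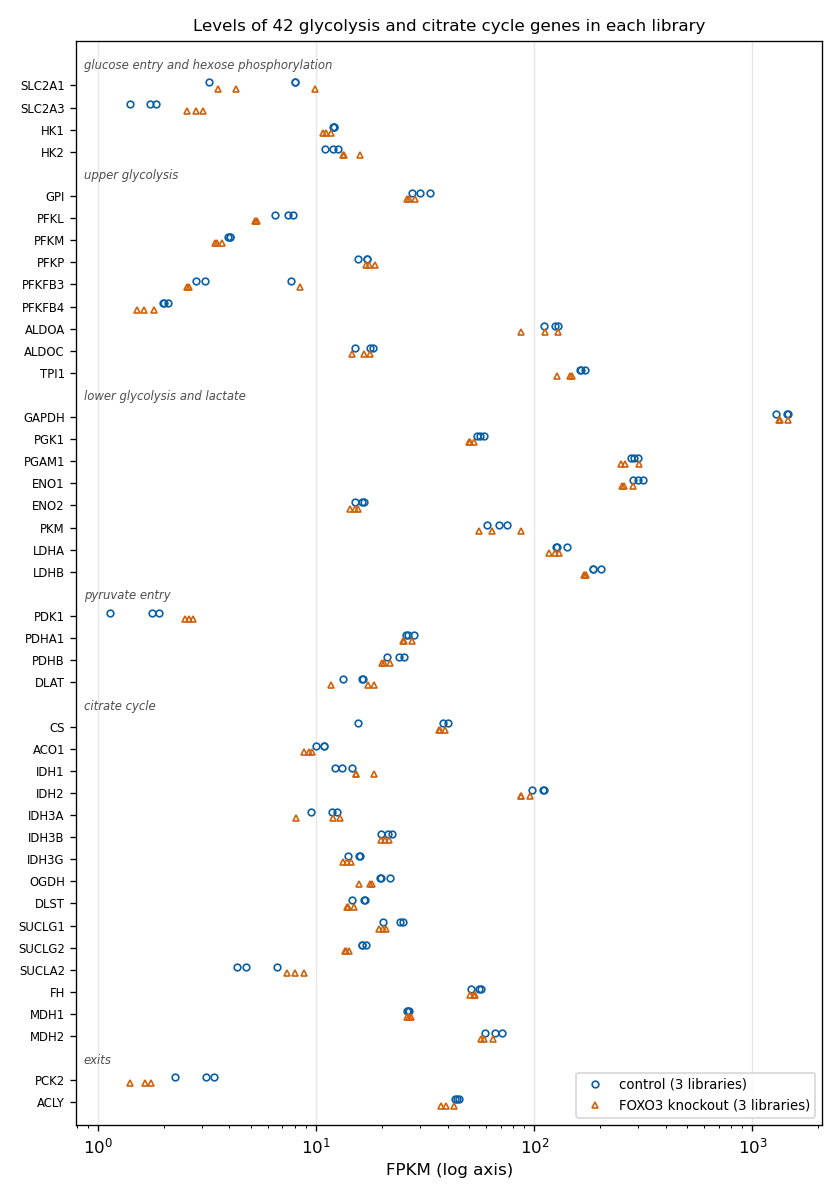
FPKM of each member (log x axis) in the 3 control libraries (circles) and the 3 knockout libraries (triangles), grouped by role. GAPDH lies highest in every library, and the values of 1 gene mostly lie close together compared with the distance between genes.

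Glucose entry and hexose phosphorylation held the member with the smallest p. SLC2A3 encodes GLUT3, a glucose transporter of high affinity, on chromosome 12 from 7919230 to 7936275 on the minus strand (GRCh38). Its level was 1.72, 1.39 and 1.85 FPKM in control libraries and 3.03, 2.82 and 2.55 FPKM in knockout libraries. Every knockout value was above every control value, and the log2 fold change was 0.52 (SE 0.10, 95% interval 0.27 to 0.76, limma adjusted p = 0.0538). It passed the threshold in 5 of the 17 alternative settings that tested it, among them both other scalings, and its adjusted p went up to 0.186 when a library was left out. SLC2A1, which encodes the widespread transporter GLUT1, stood in a row shared with AC099795, at 7.97, 8.0 and 3.23 FPKM in control and 9.86, 3.54 and 4.31 FPKM in knockout libraries. High and low values occurred in both groups, and the interval of its log2 fold change ran from −1.15 to 0.89, so a level 2-fold lower in the knockout libraries lies within it.

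The hexokinases trap glucose in the cell as glucose 6-phosphate. HK2, the inducible isozyme, was at 12.6, 10.9 and 11.9 FPKM in control and 13.3, 13.3 and 15.8 FPKM in knockout libraries, higher in all knockout libraries (log2 fold change 0.24, limma adjusted p = 0.181). HK1, the broadly expressed isozyme, was at 12.1, 11.9 and 12.1 FPKM and at 11.7, 10.8 and 11.1 FPKM, lower in all knockout libraries (log2 fold change −0.10, adjusted p = 0.374). Neither passed the test.

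Of the 9 upper glycolysis members 8 had lower means in the knockout libraries, and none passed the test. PFKL, the liver-type subunit of phosphofructokinase, which commits sugar to glycolysis, is encoded on the plus strand of chromosome 21, from 44300051 to 44327376. It was at 6.50, 7.42 and 7.80 FPKM in control and at 5.29, 5.22 and 5.36 FPKM in knockout libraries, without overlap. The log2 fold change was −0.39 (SE 0.08, 95% interval −0.59 to −0.18, limma adjusted p = 0.0618), and it passed the threshold in 4 of the 18 alternative settings. Its transcripts had the highest GC content of the members, at 63.6%, and the log2 fold change was −0.32 (adjusted p = 0.0405) after the dependence on GC content and length was regressed out.

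TPI1, which interconverts the triose phosphates, was at 164, 161 and 170 FPKM in control and 149, 127 and 145 FPKM in knockout libraries (log2 fold change −0.23, limma adjusted p = 0.128). PFKFB4, which makes and breaks down the activator fructose 2,6-bisphosphate, was at 1.98, 1.99 and 2.09 FPKM and at 1.81, 1.62 and 1.5 FPKM (log2 fold change −0.20, adjusted p = 0.198). The groups overlapped in neither gene. PFKFB3, the paralog of PFKFB4, behaved differently, at 2.82, 7.70 and 3.08 FPKM in control and 2.62, 8.41 and 2.56 FPKM in knockout libraries, with 1 high library in each group. The other members of this group, GPI, PFKM, PFKP, ALDOA and ALDOC, had log2 fold changes from −0.16 to 0.08.

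In lower glycolysis and lactate exchange, where ATP and NADH are recovered, all 8 members had lower means on the log2(FPKM + 1) scale in the knockout libraries, by small amounts, and the mean FPKM of PKM was slightly higher (68.2 ± 7.42 in control and 68.9 ± 16.0 in knockout libraries, SD, n = 3). LDHB, the lactate dehydrogenase subunit that favours pyruvate formation, shares its row with AC010197 and GYS2 and was at 186, 202 and 185 FPKM in control and 170, 173 and 169 FPKM in knockout libraries (log2 fold change −0.16, limma adjusted p = 0.163). ENO1, the main enolase, was at 284, 316 and 298 FPKM and at 253, 258 and 284 FPKM (log2 fold change −0.18, adjusted p = 0.192). The highest knockout value of ENO1 lay just under the lowest control value. PGK1, phosphoglycerate kinase, was at 54.4, 59.0 and 56.3 FPKM and at 50.5, 50.1 and 53.0 FPKM (log2 fold change −0.14, adjusted p = 0.206), in a row shared with ATP7A and AL356235. These 3 genes did not overlap between the groups, while the other members of this role group did. Of all names tested, 14.7% had every knockout value below every control value. With GC content and length regressed out, the log2 fold changes were −0.27 for LDHB, −0.10 for ENO1 and −0.29 for PGK1. GAPDH had a log2 fold change of −0.02 (95% interval −0.20 to 0.17), and PKM, the pyruvate kinase whose splice forms share 1 row, of −0.00 (−0.41 to 0.41). LDHA, PGAM1 and ENO2 were each at −0.09.

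Pyruvate entry held 1 member apart from the rest. PDK1, a kinase that switches off pyruvate dehydrogenase and a known target of HIF-1, is encoded on the plus strand of chromosome 2, from 172555373 to 172608669. It was at 1.90, 1.14 and 1.77 FPKM in control and 2.60, 2.73 and 2.51 FPKM in knockout libraries, without overlap (log2 fold change 0.49, SE 0.13, 95% interval 0.17 to 0.80, limma adjusted p = 0.0897). It passed the threshold in none of the 17 alternatives that tested it, and its log2 fold change was 0.27 with GC content and length regressed out and the second control left out. No member encoding part of the dehydrogenase that PDK1 acts on passed the test. Its subunit PDHA1 was at 25.7, 28.0 and 26.4 FPKM and at 27.5, 25.4 and 25.0 FPKM (95% interval of the log2 fold change −0.20 to 0.13), and PDHB at 21.2, 25.3 and 23.9 FPKM and at 20.5, 21.8 and 20.1 FPKM (−0.36 to 0.04). The log2 fold change of PDHB was −0.16, and −0.26 with GC content and length regressed out. DLAT, its acetyltransferase, had a log2 fold change of 0.03 (−0.40 to 0.45). Among non-member genes of the dehydrogenase, DLD was at 19.0, 14.6 and 15.1 FPKM in control and 24.6, 23.4 and 20.4 FPKM in knockout libraries. Its log2 fold change was 0.47 (95% interval 0.18 to 0.76, limma adjusted p = 0.0823), and that of PDHX was 0.13 (−0.25 to 0.50).

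Of the 15 citrate cycle members 11 had lower and 4 higher means in the knockout libraries, and the smallest p values belonged to alternative subunits of the same enzyme. Succinyl-CoA synthetase pairs the shared subunit SUCLG1 with either SUCLG2, which gives the GTP-forming enzyme, or SUCLA2, which gives the ATP-forming enzyme. SUCLG2, on chromosome 3 from 67360460 to 67654614 on the minus strand, was at 16.2, 16.1 and 17.0 FPKM in control and 14.1, 13.7 and 13.5 FPKM in knockout libraries (log2 fold change −0.24, SE 0.06, 95% interval −0.38 to −0.09, limma adjusted p = 0.0823). SUCLA2, on chromosome 13 from 47745736 to 48037968 on the minus strand, was at 6.61, 4.33 and 4.77 FPKM and at 8.82, 8.0 and 7.38 FPKM (log2 fold change 0.55, SE 0.15, 95% interval 0.20 to 0.91, adjusted p = 0.0891). SUCLG2 was lower and SUCLA2 higher in every knockout library, and each passed the threshold in 1 of the 18 alternatives. With GC content and length regressed out, the log2 fold change was −0.40 for SUCLG2 (adjusted p = 0.0487) and 0.32 for SUCLA2 (0.0933), and 0.28 for SUCLA2 when the second control was left out as well (0.181).

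The isocitrate dehydrogenases also differed in direction without passing the test. IDH2, the mitochondrial NADP enzyme, was at 97.6, 110 and 111 FPKM in control and 86.9, 87.1 and 95.7 FPKM in knockout libraries (log2 fold change −0.23, limma adjusted p = 0.125). IDH1, its cytosolic counterpart, was at 14.6, 12.2 and 13.1 FPKM and at 18.4, 15.3 and 15.2 FPKM (log2 fold change 0.27, adjusted p = 0.176). The subunits of the NAD enzyme, IDH3A, IDH3B and IDH3G, had log2 fold changes between −0.12 and −0.03. OGDH, the first component of the oxoglutarate dehydrogenase complex, was at 20.4 ± 1.11 and 17.1 ± 1.20 FPKM (SD, n = 3; log2 fold change −0.24, adjusted p = 0.126), and ACO1, the cytosolic aconitase, at 10.5 ± 0.501 and 9.22 ± 0.422 FPKM (adjusted p = 0.195). MDH1, cytosolic malate dehydrogenase, had an interval of −0.13 to 0.14, and the log2 fold changes of DLST, SUCLG1, FH and MDH2 lay between −0.18 and −0.06. CS, citrate synthase, stood in a row with CNPY2 and AC073896, at 38.3, 15.6 and 40.1 FPKM in control and 36.6, 36.9 and 38.9 FPKM in knockout libraries. The second control library alone was low.

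Both exit enzymes had every knockout value below every control value, where 14.7% of all names tested did. PCK2, the mitochondrial phosphoenolpyruvate carboxykinase and a known target of ATF4, is encoded on the plus strand of chromosome 14, from 24094053 to 24110598. It was at 2.25, 3.12 and 3.39 FPKM in control and 1.40, 1.74 and 1.64 FPKM in knockout libraries, the largest difference on the log2(FPKM + 1) scale among the members (log2 fold change −0.59, SE 0.13, 95% interval −0.91 to −0.26, limma adjusted p = 0.0671). It passed the threshold in 2 of the 17 alternatives that tested it, without the first control library (adjusted p = 0.0308) and with the dependence on GC content and length regressed out (0.0489). ACLY, which makes cytosolic acetyl-CoA from citrate for lipid synthesis and shares its row with DNAJC7, was at 43.4, 44.4 and 45.1 FPKM and at 42.8, 37.5 and 39.4 FPKM (log2 fold change −0.15, adjusted p = 0.225).

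Shares of paralogs within a library do not depend on how the library was scaled. In 4 of the 10 sets compared at least 1 share did not overlap between the groups. Of single genes 32.3% did not overlap, but this is no matched background. A share can move with any gene of its set, and the phosphofructokinase trio gives 3 shares. SUCLG2 made up 71.1%, 78.9% and 78.1% of the summed FPKM of SUCLG2 and SUCLA2 in control and 61.6%, 63.1% and 64.7% in knockout libraries. PFKP, the platelet-type subunit, made up 59.8%, 59.9% and 59.3% of the phosphofructokinase sum in control and 66.6%, 66.1% and 67.2% in knockout libraries. The share of PFKL was correspondingly lower, at 24.9%, 26.0% and 27.0% in control and 20.1%, 20.4% and 19.4% in knockout libraries, and that of PFKM was 14.4% ± 0.882 and 13.4% ± 0.0809 (SD, n = 3). IDH1 made up 11.2% ± 1.62 of the IDH1 and IDH2 sum in control and 15.4% ± 1.93 in knockout libraries, and HK1 50.5% ± 1.54 and 44.2% ± 2.80 of the HK1 and HK2 sum. Each of these had an exact two-sided permutation p of 0.1, the smallest that 3 against 3 libraries allow, and 0.2 after Benjamini-Hochberg adjustment over the 12 shares, so none could pass a threshold of 0.05. Transcript GC content was lower in the paralog whose share was larger in knockout than in control libraries for IDH1 against IDH2 (43.1% and 57.9%). The same held for PFKP against PFKL (57.4% and 63.6%), but not for PFKP against PFKM (51.4%). GC content was close within the other pairs, at 40.5% for SUCLA2 and 42.6% for SUCLG2 and at 51.2% for both hexokinases. The shares of LDHA, ENO1, ALDOA, MDH1, SLC2A1 and PFKFB3 overlapped between the groups.

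**Figure D3:**
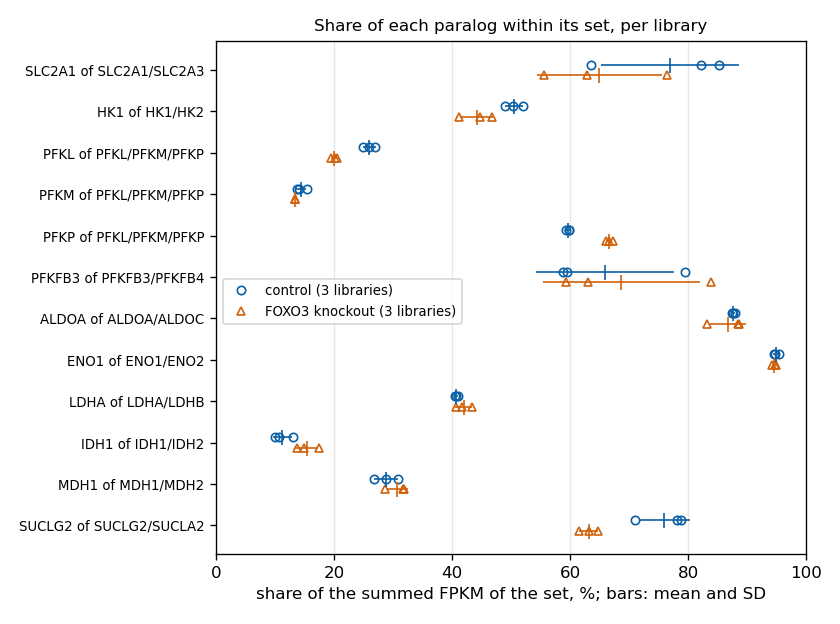
Share of a paralog in the summed FPKM of its pair or trio (x axis, percent) in each control library (circles) and knockout library (triangles), with mean and SD. The groups are apart for HK1, PFKL, PFKM, PFKP, IDH1 and SUCLG2 and overlap for the other 6 shares.

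The promoters of the pair members that were higher in the knockout libraries, and that of SUCLG2, are shown because the groups did not overlap in these isozyme shares. Each is the 250 bases before the gene's RefSeq start (GRCh38.p14), 5′ to 3′ on the gene's strand, and that start may not be the one used in these cells. GENCODE release 29 places the starts of these genes further upstream. The windows of IDH1 and SUCLA2 lie wholly within its gene spans, and those of HK2 and SUCLG2 partly. Capitals mark ACGTG, the core of hypoxia response elements, on either strand.
HK2 promoter, chr2:74833877-74834126, plus strand: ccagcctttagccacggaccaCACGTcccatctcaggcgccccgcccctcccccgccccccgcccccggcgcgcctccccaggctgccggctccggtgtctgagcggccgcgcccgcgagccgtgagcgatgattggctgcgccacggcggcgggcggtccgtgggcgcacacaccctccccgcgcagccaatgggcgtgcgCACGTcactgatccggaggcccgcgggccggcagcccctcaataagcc
IDH1 promoter, chr2:208254459-208254708, minus strand: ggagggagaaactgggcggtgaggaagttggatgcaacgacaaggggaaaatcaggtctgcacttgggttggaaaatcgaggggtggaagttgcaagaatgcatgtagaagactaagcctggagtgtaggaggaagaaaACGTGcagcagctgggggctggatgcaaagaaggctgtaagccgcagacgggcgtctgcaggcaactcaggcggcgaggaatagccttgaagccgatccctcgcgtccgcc
SUCLA2 promoter, chr13:48001274-48001523, minus strand: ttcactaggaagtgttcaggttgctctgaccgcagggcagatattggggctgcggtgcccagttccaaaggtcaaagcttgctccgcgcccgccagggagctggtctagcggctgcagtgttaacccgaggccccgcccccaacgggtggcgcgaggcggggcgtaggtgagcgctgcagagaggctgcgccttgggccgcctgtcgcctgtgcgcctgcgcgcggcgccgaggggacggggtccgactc
SUCLG2 promoter, chr3:67654613-67654862, minus strand: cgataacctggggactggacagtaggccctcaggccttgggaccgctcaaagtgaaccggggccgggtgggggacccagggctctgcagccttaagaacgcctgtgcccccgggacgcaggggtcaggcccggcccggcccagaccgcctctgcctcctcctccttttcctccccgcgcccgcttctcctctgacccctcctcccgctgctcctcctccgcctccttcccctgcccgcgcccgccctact
The letters ACGTG occurred at 2 places in the HK2 window and at 1 in that of IDH1, and in neither succinyl-CoA synthetase window. Of the 42 members 40 had a promoter in the RefSeq table. Of these, 12 (30.0%) held ACGTG, against 18.5% of all 35116 promoters. They were those of ALDOA, ALDOC, DLAT, ENO2, GAPDH, GPI, HK2, IDH1, IDH3G, LDHA, PDHB and PGK1. Among these genes DLAT, HK2 and IDH1 had higher means in the knockout libraries, and all the others had lower means. The E-box CACGTG, which contains ACGTG, was in 4 of the 40 (10%, against 6.34%), those of ALDOC, GAPDH, LDHA and PDHB. The forkhead motif GTAAACA was in 0 of 40, against 2.98% of all promoters. Both strands were searched, and a match is a description of the letters only.

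Most members were measured tightly, and a few moved between libraries without regard to group. The median coefficient of variation within groups was 6.46%, against 11.5% over all names tested. The members' median level was also higher (17.9 against 5.82 FPKM), and names of like level were not compared. Among the members, 30 had a coefficient below 10%. Only PFKFB3 (67.7%), SLC2A1 (51.2%) and CS (30.9%) exceeded 20%. The libraries with high values differed between these genes: the second control and the second knockout library for PFKFB3, the first 2 controls and the first knockout library for SLC2A1, and every library but the second control for CS. The rows of SLC2A1 and CS name several genes, as do those of GPI, PFKP, ALDOA, PGK1, LDHB and ACLY, and how reads shared between genes were assigned is not given in the sources. Among the 34 members with a row of their own, 27 were lower in the knockout libraries.

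**Figure D4:**
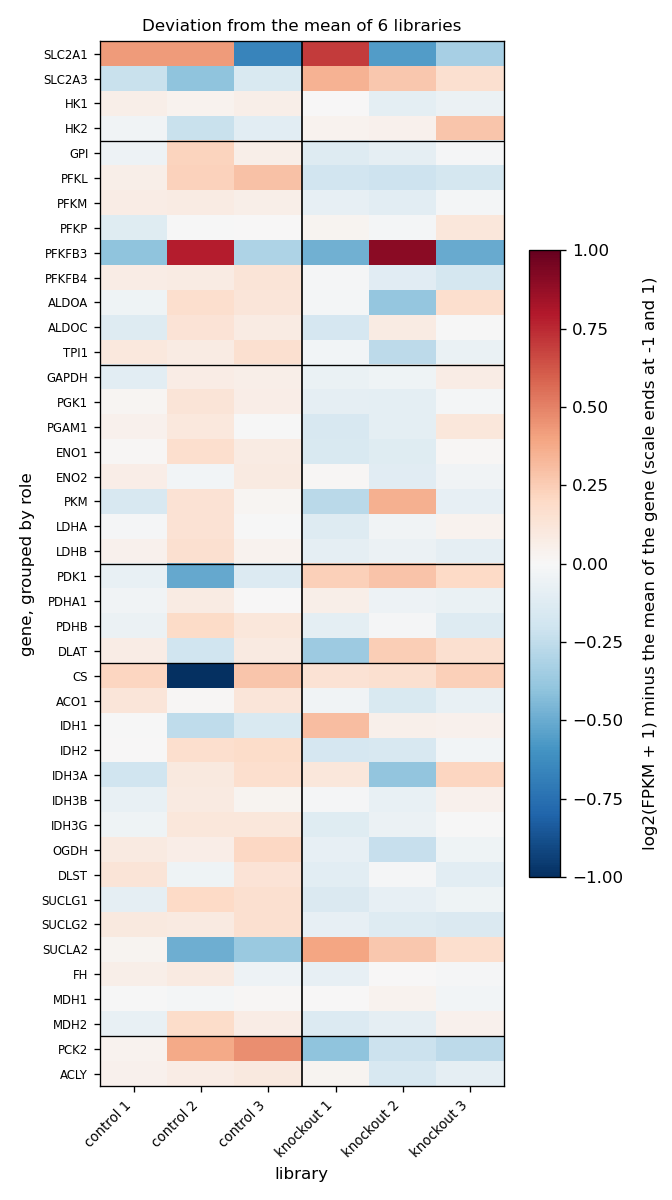
Deviation of log2(FPKM + 1) from the gene's mean over 6 libraries (colour, red above and blue below) for the 42 members (rows, grouped by role) in each library (columns). PFKFB3, SLC2A1 and CS change between libraries of the same group. PCK2, SUCLA2, PDK1 and SLC2A3 are among the members whose groups do not overlap (5 above and 14 below in knockout libraries). Of all names tested, 17.7% lay above and 14.7% below in this way.

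Of 77 further genes of glucose metabolism with a row in the table, 50 were tested. Of these 1, HKDC1, passed the test, where 2.68% of all names tested did, so the count does not set these genes apart. HKDC1, a hexokinase-like enzyme, was at 1.70, 1.85 and 1.90 FPKM in control and 0.728, 1.06 and 0.987 FPKM in knockout libraries (log2 fold change −0.55, SE 0.10, limma adjusted p = 0.0452). With a library left out it kept the call without the first control, and its adjusted p was 0.0982 to 0.132 without each of the other 5. The median log2 fold change of the 50 was −0.02, with 27 lower and 23 higher. The next smallest p values belonged to HIF1A, the oxygen-regulated subunit of HIF-1, in a row shared with SNAPC1 and AL137129 (7.72 ± 1.58 and 12.5 ± 1.21 FPKM, adjusted p = 0.0647), to MINPP1, an inositol phosphate phosphatase that also acts on 2,3-bisphosphoglycerate (8.09 ± 0.435 and 10.2 ± 0.443 FPKM, adjusted p = 0.0753), and to SLC25A1, the mitochondrial citrate carrier (41.0 ± 11.1 and 21.9 ± 2.96 FPKM, adjusted p = 0.0805; SD, n = 3). SLC25A1 passed the threshold without the second control library (adjusted p = 0.0371), and HIF1A without the first (0.0290). With GC content and length regressed out, the log2 fold change of HIF1A went from 0.64 to 0.38 (adjusted p = 0.0511) and that of MINPP1 from 0.30 to 0.13 (0.301).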

How the data were processed

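The authors deposited 1 table of FPKM per gene, per the file headers, in which each of the 6 libraries has its own column. Bowtie 0.12.9, HTSeq and Cufflinks 2.1.1 are listed without a role, and hg38 as the build, per the submitters' processing notes. The value 0.0001 acts as a floor. Rows whose names, split on semicolons, held a member were taken for it, identical rows were dropped and the rest summed per name; 8 members stood in rows naming several genes. Names with a mean of at least 1 FPKM (11162 of 47102) were tested on log2(FPKM + 1), a scale that understates changes of low values, with limma 3.58.1 in R 4.3.3 (group as the only term, mean-variance trend, two-sided, Benjamini-Hochberg adjustment at 0.05). The fit was tested on simulated data. Shares were compared with exact permutation tests (SciPy 1.17.1, Python 3.11.15, pandas 2.3.3), and figures drawn with matplotlib 3.10.9. Transcript length and GC content came from GENCODE release 29, which held 99.0% of the transcript identifiers, as did gene coordinates.

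Depth was estimated, since FPKM holds no counts. Where a row had 1 annotated transcript, the product of FPKM and length took stepwise values, with 76.7% to 78.0% of the low values lying no more than 0.1 from a whole step, where 20% would by chance. A step was read as 1 aligned base and 282 steps, the most frequent value, as 1 read pair. Because steps were bases and not reads, no count model was run. Values were given in every library for all members past the threshold, for the 3 of smallest p in each role group, and for others named after their values were seen. Members, lists and role groups were chosen with earlier results of these data known. The tried alternatives cover pseudocount, filter, scaling, variance trend, replicate block, choice of row, length and GC content, and each library left out.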

Additional observations from a re-analysis of the deposited data

How the results depend on the processing

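Over 18 alternatives, a member passed the threshold in 6. Among members higher in the knockout libraries the count was 1 (SLC2A3) with a pseudocount of 5, with upper-quartile scaling, with quantile normalization, without the mean-variance trend and with GC content and length regressed out, and 0 to 1 with each library left out in turn. Among lower members it was 1 (PFKL) with upper-quartile scaling and with quantile normalization, 3 (PFKL, SUCLG2 and PCK2) with GC content and length regressed out, and 0 to 2 with each library left out; the calls in leave-outs came only without the first control. Of the further pathway genes, 0 passed with a pseudocount of 0.1, with no filter, with a mean of at least 5 FPKM or with the replicate block, 3 with GC content and length regressed out, and 0 to 3 with a library left out. Over all names, 299 passed (154 higher, 145 lower), 193 with no filter, 542 with quantile normalization, 518 with GC content and length regressed out and 187 with that regression and the second control left out, an alternative chosen after seeing the data. With a library left out this count ran from 68 to 929: 929 without the first control, 122 without the second, 93 without the third, 79 without the first knockout library and 68 without either other one. Upper-quartile scaling gave 170 higher and 259 lower names. The cause of these shifts was not tested, and some of the alternatives held fewer names or libraries. With the replicate block 27 names and 0 members passed. Same-numbered libraries correlated in their deviations at 0.10, −0.04 and 0.02, so the numbers do not pair them, and not every library correlated best with its own number. The log2 fold change of PDHA1 turned to 0.013 with that regression and the second control left out, and that of FOXO3 ran from −0.12 to 0.00027 with a library left out, turning without the third knockout library. Lower means were counted in 27 to 35 of the 42 members in all alternatives that tested all 42. Paralog shares were recomputed only with each library left out and with rows naming 1 gene alone. Leaving 1 library out cannot move their difference by as much as the larger SD of the 2 groups. A row naming 1 gene alone gives the same values, so these reruns could not test the shares. FPKM, with its depth only estimated, limits what can be said of the lowest members.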

Other observations

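MYC, chosen after its values were seen, was listed at 2.25, 66.8 and 46.9 FPKM in control and at 64.7, 2.77 and 2.44 FPKM in knockout libraries, so that high and low values occurred in both groups (limma adjusted p = 0.655). Of the 3 libraries with high MYC values, the second control was also high in PFKFB3, and the second control and the first knockout library in SLC2A1. The third control, also high in MYC, was low in PFKFB3 (3.08 FPKM) and SLC2A1 (3.23 FPKM). The first knockout library was low in PFKFB3 (2.62 FPKM). Among libraries with low MYC values, the second knockout library was high in PFKFB3 (8.41 FPKM) and the first control in SLC2A1 (7.97 FPKM). TXNIP, an inhibitor of glucose uptake and a known FOXO target, was below the filter at 0.0520 ± 0.0361 FPKM in control and 0.0514 ± 0.0583 FPKM in knockout libraries (SD, n = 3).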
